A study of Mus musculus with 8 samples.

Results

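Thyroid hormone metabolism and response were examined in AML12 cells, a mouse hepatocyte line, that stably expressed Zfp125, a zinc finger protein, or carried the empty vector (EV). The genes described are 7 of the 22180 genes tested: the deiodinases Dio1, Dio2 and Dio3, the transporter Slc16a10, and the liver target genes Thrsp, Me1 and Bcl3. They were taken as every transcript cluster (the set of probes that measures a transcript) that the platform annotation pairs with one of these symbols. This gave 8 clusters, 2 of them for Dio2 and 1 for each other gene, and 0 of the 8 carried a second symbol. G418 selection and control medium were common to both groups, and 4 Affymetrix mouse gene arrays were run for each. Whether the arrays of a group came from separate cultures or from a single selected line is not stated, and the p-values then reflect the scatter among these samples alone, part of which may be technical. The transgene could not be checked, because Zfp125 is not analysed here. The labels name no thyroid hormone treatment and do not give the hormone content of the medium.

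Thyroid hormone acts mainly as T3, which liver cells take up through membrane transporters and also make from T4. Dio1 and Dio2 remove an outer-ring iodine and so form T3 from T4, whereas Dio3 removes an inner-ring iodine and inactivates both hormones. All of these deiodinases are selenoproteins. T3 binds the receptors Thra and Thrb, which sit on DNA with retinoid X receptors and turn liver genes of lipid and glucose metabolism on or off. Thrsp and Me1 are classic T3-induced liver genes of fat synthesis: Thrsp encodes the Spot14 protein and Me1 the cytosolic malic enzyme, which makes NADPH. Bcl3, an atypical I-kappa-B protein that works with NF-kB subunits in the nucleus, is also T3-induced in liver, and Slc16a10 (MCT10) carries aromatic amino acids and T3.

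Promoter windows are shown for Me1 and Bcl3, the members whose groups stood farthest apart, and for Dio2, the deiodinase with the largest difference. Each is the RefSeq window of 300 bases, from 250 before to 50 after the annotated start, in GRCm38.p6, and 7 of the 7 genes were matched (8 windows, 2 for Me1). The Me1 window lies at chr9:86695865-86696164, the Bcl3 window at chr7:19822706-19823005 and the Dio2 window at chr12:90738989-90739288, all on the minus strand, printed 5′ to 3′ on the strand of the gene. Capitals mark an antioxidant response element core (TGACNNNGC) in Me1, an NF-kB consensus match in Bcl3 and a cAMP response element (TGACGTCA) in Dio2.
Me1: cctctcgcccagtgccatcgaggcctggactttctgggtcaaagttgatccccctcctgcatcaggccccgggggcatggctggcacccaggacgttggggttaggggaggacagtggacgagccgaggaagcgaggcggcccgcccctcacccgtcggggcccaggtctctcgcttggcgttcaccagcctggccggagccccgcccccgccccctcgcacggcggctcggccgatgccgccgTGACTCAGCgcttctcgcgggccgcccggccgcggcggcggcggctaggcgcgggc
Bcl3: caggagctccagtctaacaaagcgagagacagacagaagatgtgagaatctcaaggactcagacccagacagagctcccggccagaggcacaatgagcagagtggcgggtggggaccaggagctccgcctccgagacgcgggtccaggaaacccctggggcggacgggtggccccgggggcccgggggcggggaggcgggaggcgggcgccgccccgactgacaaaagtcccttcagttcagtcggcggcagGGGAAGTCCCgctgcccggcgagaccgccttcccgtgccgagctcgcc
Dio2: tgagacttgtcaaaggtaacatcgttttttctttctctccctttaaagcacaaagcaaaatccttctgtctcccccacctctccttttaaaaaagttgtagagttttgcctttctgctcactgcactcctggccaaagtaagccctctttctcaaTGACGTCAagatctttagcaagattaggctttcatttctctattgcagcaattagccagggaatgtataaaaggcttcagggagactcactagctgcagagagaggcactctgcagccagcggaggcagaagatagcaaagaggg

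Motifs were searched on both strands in all 32851 promoter windows of that length. The nuclear receptor half-site, searched only as the exact letters AGGTCA, was in 16.3% of them and in 0 of the 8 windows of the 7 genes. Variant forms of the half-site were not searched, so a receptor site in these windows is not excluded. The antioxidant core was in 12.4% of all windows and, among the 7 genes, in Me1, where it begins 6 bases before the start. It was not in the second Me1 window. The cAMP response element was in 1.79% of all windows and began 95 bases before the start of Dio2, a gene known to be induced through cAMP. The NF-kB consensus was in 8.46% of all windows. It had 1 match in Bcl3, beginning at base 3 after the start, and 2 in Dio3. AGGTCA on its opposite strand, TGACGTCA and TGACNNNGC share the letters TGAC, but 0 matches of different motifs overlapped in these 8 windows. A match describes the letters of the window only.

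In Zfp125 cells, 0 of the 7 genes passed the test at an adjusted p under 0.05 (limma, Benjamini-Hochberg over all 22180 genes), against 1.08% of all genes, 0.446% higher and 0.636% lower. At an unadjusted p under 0.05 there were 2, Me1 and Bcl3, against 10.9% of all genes. The estimate was above 0 for 3 genes and below 0 for 4, with a median change of -0.08 beside -0.00268 over all genes. The groups did not overlap for 1 gene, Bcl3, which was lower on every Zfp125 array. Over all genes the groups did not overlap for 7.29%, with 3.71% higher and 3.58% lower. All changes below are Zfp125 minus EV cells on the log2 scale, ± is the standard error for a change and the SD for a group mean (n = 4 arrays), and adjusted p-values come from limma.

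**Figure D1:**
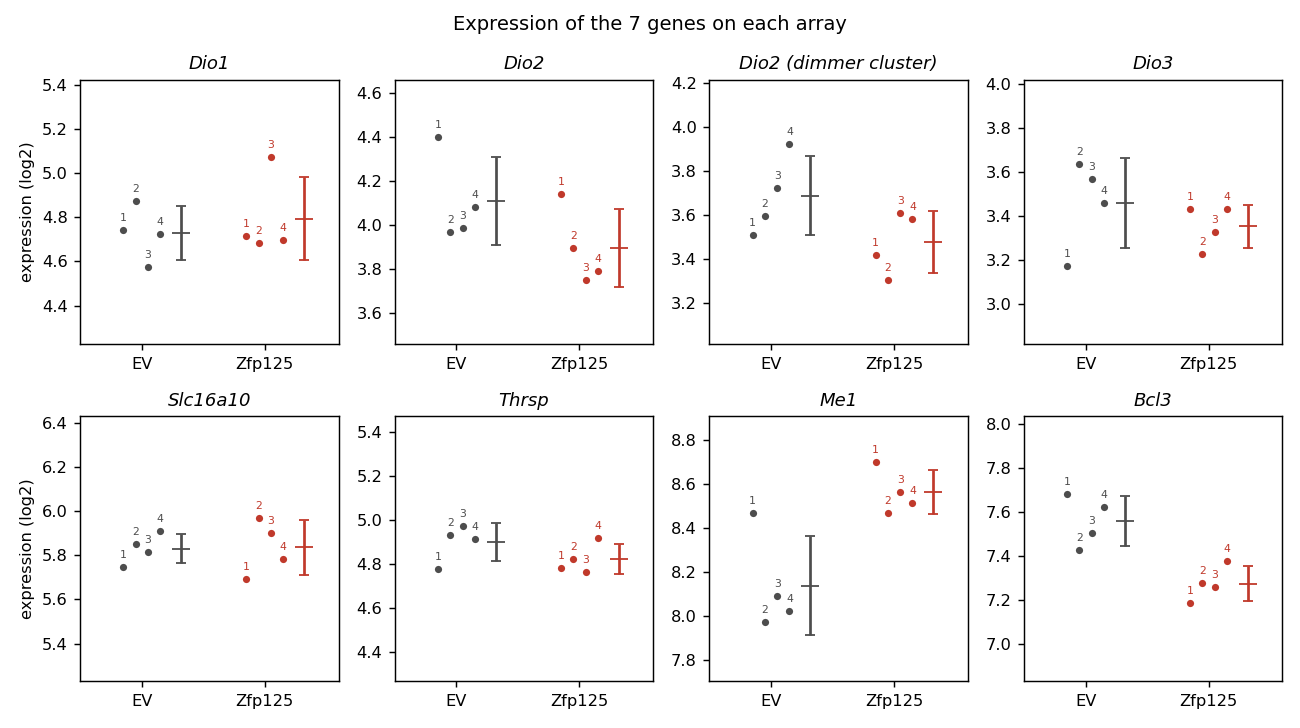
Expression of the 7 genes on each of 8 arrays (log2 values, y axis; every panel spans 1.2 log2 units; numbers beside points are replicate numbers; the bar is the group mean with its SD). Bcl3 is lower on all 4 Zfp125 arrays, Me1 is higher there except that EV replicate 1 reaches the lowest Zfp125 array, and the groups of the other panels overlap.

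Among the deiodinases, Dio1 was at 4.74, 4.87, 4.57 and 4.73 on the EV arrays (replicates 1 to 4) and at 4.72, 4.68, 5.07 and 4.70 on the Zfp125 arrays. The groups overlapped, and Zfp125 replicate 3 lay above all other arrays. The change was 0.06 ± 0.11 (adjusted p = 0.894), with a 95% interval from -0.17 to 0.30. Without Zfp125 replicate 3 it turned to -0.03. Dio1 is the deiodinase of adult liver and itself a T3-induced gene, so its level is often read as a sign of hepatic T3 action.

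Dio2, which raises T3 inside the cell, was measured by 2 clusters. The brighter cluster was at 4.40, 3.97, 3.99 and 4.08 in EV cells and at 4.14, 3.90, 3.75 and 3.79 in Zfp125 cells. Its Zfp125 arrays 2 to 4 lay below all EV arrays, while Zfp125 replicate 1 lay inside the EV range. The change was -0.21 ± 0.12 (adjusted p = 0.555), with a 95% interval from -0.47 to 0.04. It was -0.12 without EV replicate 1, the array with the highest value, and -0.30 without Zfp125 replicate 1.

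The dimmer Dio2 cluster was at 3.51, 3.60, 3.72 and 3.92 in EV cells and at 3.42, 3.31, 3.61 and 3.58 in Zfp125 cells. The groups again overlapped, and the change was -0.21 ± 0.12 (adjusted p = 0.631 over all 41345 clusters). The clusters thus gave like estimates, but not the same order of arrays: EV replicate 1 was the highest EV array in the brighter cluster and the lowest in the dimmer one. With the mean of both clusters the change was -0.21 (adjusted p = 0.393).

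Dio3, the inactivating deiodinase, was at 3.17, 3.64, 3.57 and 3.46 in EV cells and at 3.43, 3.23, 3.33 and 3.43 in Zfp125 cells. The Zfp125 values all lay inside the EV range. The change was -0.11 ± 0.11 (adjusted p = 0.795), with a 95% interval from -0.34 to 0.13. It was -0.20 without EV replicate 1, the lowest array, and -0.05 without EV replicate 2, the highest. The mean signals of Dio2 and Dio3 over all 8 arrays lay below the median of all cluster means, 4.34, and that of Dio1 lay at the 58.8th percentile. No detection call was used, so whether these signals exceed background is not known, and a difference in a transcript near background would be understated.

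Slc16a10 gave the smallest estimate. Its values were 5.75, 5.85, 5.82 and 5.91 in EV cells and 5.69, 5.97, 5.90 and 5.78 in Zfp125 cells. The EV range lay wholly inside the Zfp125 range. The change was 0.01 ± 0.09 (adjusted p = 0.993), and its 95% interval ran from -0.19 to 0.21. Its sign depended on the scaling, with -0.01 after quantile normalization.

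Of the T3 target genes, Thrsp was at 4.78, 4.93, 4.97 and 4.91 in EV cells and at 4.78, 4.82, 4.77 and 4.92 in Zfp125 cells. The groups overlapped, with EV replicates 1 and 4 inside the Zfp125 range. The change was -0.08 ± 0.09 (adjusted p = 0.818), with a 95% interval from -0.27 to 0.11.

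Me1 gave the largest estimate of the 7. Its values were 8.47, 7.97, 8.09 and 8.02 in EV cells and 8.70, 8.47, 8.57 and 8.51 in Zfp125 cells. Of the EV arrays, 3 lay below every Zfp125 array, and EV replicate 1 lay 0.00012 above the lowest of them. The means were 8.14 ± 0.22 and 8.56 ± 0.10, a 1.34-fold difference. The change was 0.42 ± 0.11 (adjusted p = 0.124), with a 95% interval from 0.18 to 0.67, and Me1 stood at rank 461 of the 22180 genes by p. Without EV replicate 1 the change was 0.53 and passed the test (adjusted p = 0.0314). It passed as well with a trended, robust variance prior (adjusted p = 0.0206). The other 15 alternatives gave adjusted p-values between 0.0506 and 0.306, all with a change above 0.

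Bcl3 was at 7.68, 7.43, 7.50 and 7.62 in EV cells and at 7.18, 7.28, 7.26 and 7.38 in Zfp125 cells. Every Zfp125 array lay below every EV array, with a gap of 0.05 between the groups. The means were 7.56 ± 0.11 and 7.27 ± 0.08, a 1.22-fold difference. The change was -0.28 ± 0.09 (adjusted p = 0.223), with a 95% interval from -0.48 to -0.09, at rank 831 by p. Adjusted p-values in the 17 alternatives ran from 0.068 to 0.434. Me1 and Bcl3 thus had estimates of opposite sign, and neither passed the test in the main fit. Whether T3 action had a part in either change was not tested.

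**Figure D2:**
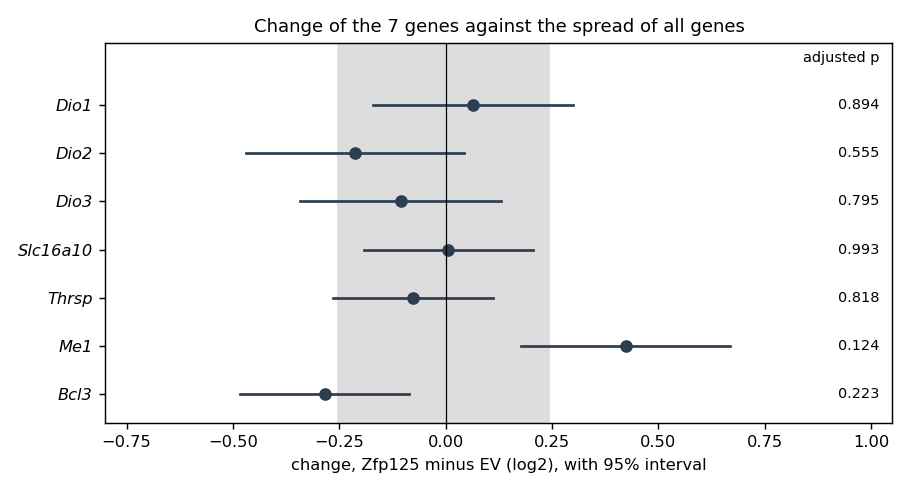
Change of each of the 7 genes, Zfp125 minus EV cells (log2, x axis; point with 95% interval from limma, adjusted p at the right). The grey band holds the changes of the middle 90% of all 22180 genes, from -0.25 to 0.24; Me1 at 0.42 and Bcl3 at -0.28 lie outside it, and the other 5 genes lie inside it.

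**Figure D3:**
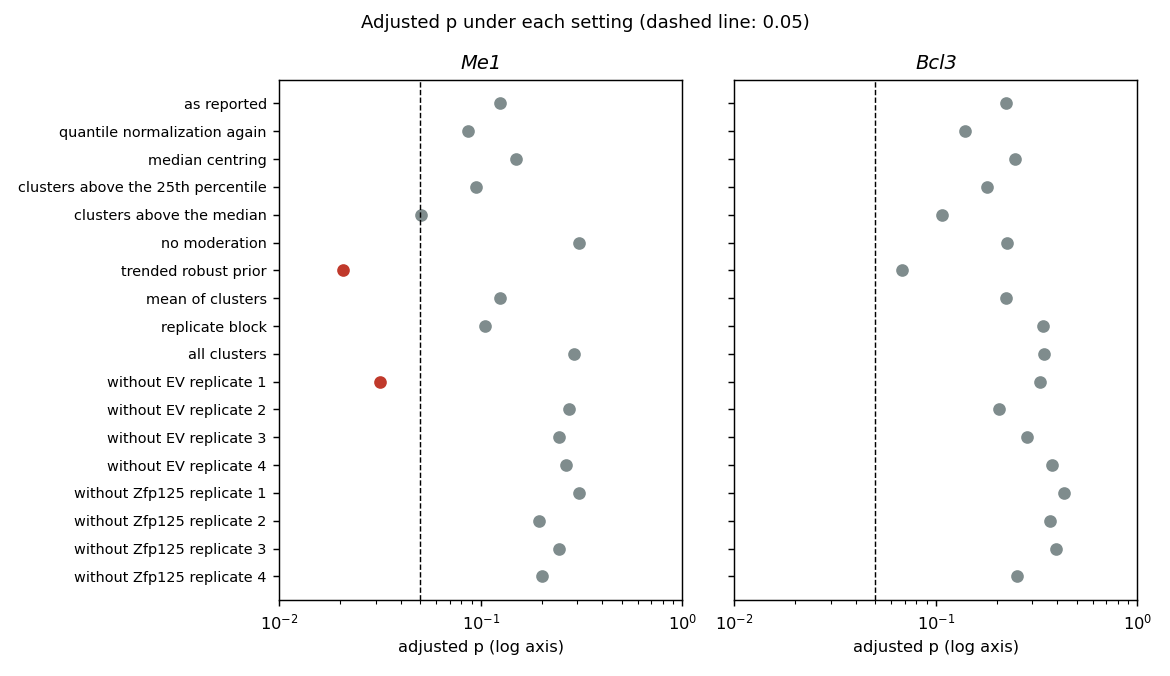
Adjusted p of Me1 and Bcl3 (log x axis) as reported and under each of 17 alternative settings or omissions of an array (y axis). For Me1 the trended, robust prior (0.0206) and the omission of EV replicate 1 (0.0314) lie left of the dashed line at 0.05, and for Bcl3 no setting does.

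EV replicate 1 recurred at the edge of its group. Of the 7 genes, it was the highest EV array for 3 (Dio2 in its brighter cluster, Me1 and Bcl3) and the lowest for 3 (Dio3, Slc16a10 and Thrsp). Over all genes this array was the highest or lowest of its group for 53.6%, and the other arrays for 47.9% to 53.0%. The mean correlation of EV replicate 1 with the other EV arrays was 0.979, against 0.978 to 0.979 for the other EV arrays. Its part in the other results was not tested beyond leaving it out.

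Likeness of pattern was described by Pearson r over the 8 arrays, which all genes share along with their scaling, and no test was made. The genes closest to Me1 were Zfp266 (Pearson r = 0.991) and Eogt (0.989). Those closest to Bcl3 were Psmb2 (0.987) and Cyb5b (0.984), of which Cyb5b, a cytochrome b5 of the outer mitochondrial membrane, fell by 0.47 (adjusted p = 0.0359). Those closest to the deiodinases were Trim54 (0.951) and Olfr122 (0.945) for Dio1, Kel (0.961) and Dbp (0.960) for the brighter cluster of Dio2, and Sgk2 (0.976) and Lrrc75b (0.972) for Dio3. Slc16a10 was closest to Trhr (0.980) and Trim10 (0.947), and Thrsp to Olfr1445 (0.980) and Gpr137c (0.976). As background, the best partner of a gene had a median r of 0.971 over 19395 genes, with 90% of genes between 0.949 and 0.989. Only the Me1 value lay above that range. Each r spans both groups, so a difference between the groups enters it. The changes were 0.42 for Me1, 0.26 for Zfp266 and 0.26 for Eogt.

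The genes beside each member on its chromosome were also examined, 3 measured genes on each side. Of these 42 neighbours, 0 passed the test (limma), against 1.08% of all genes. An unadjusted p under 0.05 was found for 5, against 10.9% of all genes. These were Ldlrad1 beside Dio1, Mfsd4b3-ps, Mfsd4b1 and Rpf2 beside Slc16a10, and Dop1a beside Me1. The changes of the 42 neighbours ran from -0.36 to 0.37. Beside Dio3, which lies in an imprinted domain, its antisense transcript gene Dio3os had a change of -0.14 ± 0.10 (adjusted p = 0.674). The 6 neighbours of Bcl3 had changes from -0.25 to 0.11, and the 6 of Me1 from -0.11 to 0.24.

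The wider thyroid hormone machinery was described by 6 lists. Without the 7 genes, 64 of their 73 genes were measured, 0 were higher and 7 were lower at an adjusted p under 0.05, against 0.446% and 0.636% of all genes. The lists were chosen with earlier results of these data known, so this comparison is a description and not a test. With clusters above the median only, 405 of 13197 genes were called in either direction. The median change over the 64 was -0.01. The 7 that fell were Sult1a1, Sult1c2, Alb, Sephs2, Scd1, Mlxipl and Apoa1, all bright, at or above the 84.6th percentile of all clusters. Without variance moderation the test called 0 of them, and with all clusters tested it called 1, Sult1a1. Levels are not compared between genes.

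Of 10 measured thyroid hormone transporters, 0 passed the test and 1 had an unadjusted p under 0.05, with a median change of -0.10. Slc7a8, an amino acid transporter that also carries iodothyronines, had a change of -0.34 ± 0.11 (adjusted p = 0.233). Its partner chain Slc3a2 had a change of 0.15 ± 0.09 (adjusted p = 0.56) and the organic anion transporter Slco1c1 of -0.14 ± 0.09 (adjusted p = 0.609).

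Of 8 measured genes of plasma carriers and hormone clearance, 3 fell and 0 rose, with a median change of -0.28. Sult1a1, a sulfotransferase that accepts iodothyronines, was at 9.85 ± 0.11 in EV cells and 8.83 ± 0.20 in Zfp125 cells. It fell by 1.03 ± 0.11 (adjusted p = 4.59e-04), and it passed in each of the 8 omissions of an array. Sult1c2, a sulfotransferase of the 1C family, fell by 0.57 ± 0.13 (adjusted p = 0.0492). That call ended in 7 of the 8 omissions of an array, all but that of Zfp125 replicate 2, with adjusted p-values up to 0.156. It also ended in 5 of 9 other settings, with adjusted p-values up to 0.246. Those were median centring, the mean of the clusters of each gene, no moderation, the replicate number as a block, and all clusters. Alb, serum albumin and a carrier of both hormones, fell by 0.48 ± 0.09 (adjusted p = 0.0178), and its call ended without EV replicates 3 or 4 or Zfp125 replicates 1 or 2 (adjusted p up to 0.0716). Transthyretin, Ttr, which binds T4 in plasma, had a change of 0.08 ± 0.10 (adjusted p = 0.836).

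Of 7 genes listed for selenoprotein synthesis, which all deiodinases need, 1 fell and 0 rose, with a median change of -0.06. Sephs2 makes the selenium donor and is itself a selenoprotein. It was at 8.93, 8.92, 8.92 and 9.05 in EV cells and at 8.43, 8.49, 8.49 and 8.26 in Zfp125 cells. The groups were separate. Sephs2 fell by 0.54 ± 0.09 (adjusted p = 0.0114), with adjusted p-values up to 0.0405 when 1 array was left out. Scly, the lyase that releases selenium from selenocysteine, had a change of -0.23 ± 0.09 (adjusted p = 0.37). Trnau1ap, which associates with the selenocysteine tRNA, had a change of 0.10 ± 0.10 (adjusted p = 0.771).

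Of 5 measured genes for ubiquitination and recovery of the Dio2 protein, 0 passed the test and 0 had an unadjusted p under 0.05 (limma), with a median change of 0.06. The ligase subunit Wsb1 had a change of 0.21 ± 0.11 (adjusted p = 0.552), the ligase Marchf6 of 0.16 ± 0.10 (adjusted p = 0.61) and the deubiquitinase Usp33 of 0.06 ± 0.10 (adjusted p = 0.905).

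Of 16 measured receptors and cofactors, 0 passed the test and 0 had an unadjusted p under 0.05 (limma), with a median change of 0.04. The receptor Thra had a change of 0.21 ± 0.14 (adjusted p = 0.621; 95% interval from -0.08 to 0.50). The main liver receptor Thrb, named after its values were seen, had a change of -0.11 ± 0.12 (adjusted p = 0.795; 95% interval from -0.36 to 0.14). The acetyltransferase Ep300 had a change of 0.17 ± 0.09 (adjusted p = 0.532) and the coactivator Ppargc1a of 0.21 ± 0.13 (adjusted p = 0.612).

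Of 23 measured T3-responsive liver genes, Thrsp, Me1, Dio1 and Bcl3 included, 3 fell and 0 rose, with a median change of -0.02. Scd1, the stearoyl-CoA desaturase, fell by 0.97 ± 0.15 (adjusted p = 0.00537) and Mlxipl, the carbohydrate response factor ChREBP, by 0.59 ± 0.10 (adjusted p = 0.0101). Apoa1, the main protein of high-density lipoprotein, fell by 0.61 ± 0.13 (adjusted p = 0.0492). The Apoa1 call ended in 7 of the 8 omissions, all but that of Zfp125 replicate 4, with adjusted p-values up to 0.163. It also ended in 4 of 9 other settings, with adjusted p-values up to 0.260. Those were quantile normalization, the mean of the clusters of each gene, no moderation and all clusters. Estimates were above 0 for 8 of the 23 genes and below 0 for 15. The list does not separate genes that T3 induces from genes that it represses, so these counts do not measure a T3 response. Hr, a corepressor gene that T3 induces in brain and skin, was chosen after its values were seen and had a change of 0.27 ± 0.12 (adjusted p = 0.406), and Klf9, another direct T3 target, likewise of 0.15 ± 0.09 (adjusted p = 0.556).

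**Figure D4:**
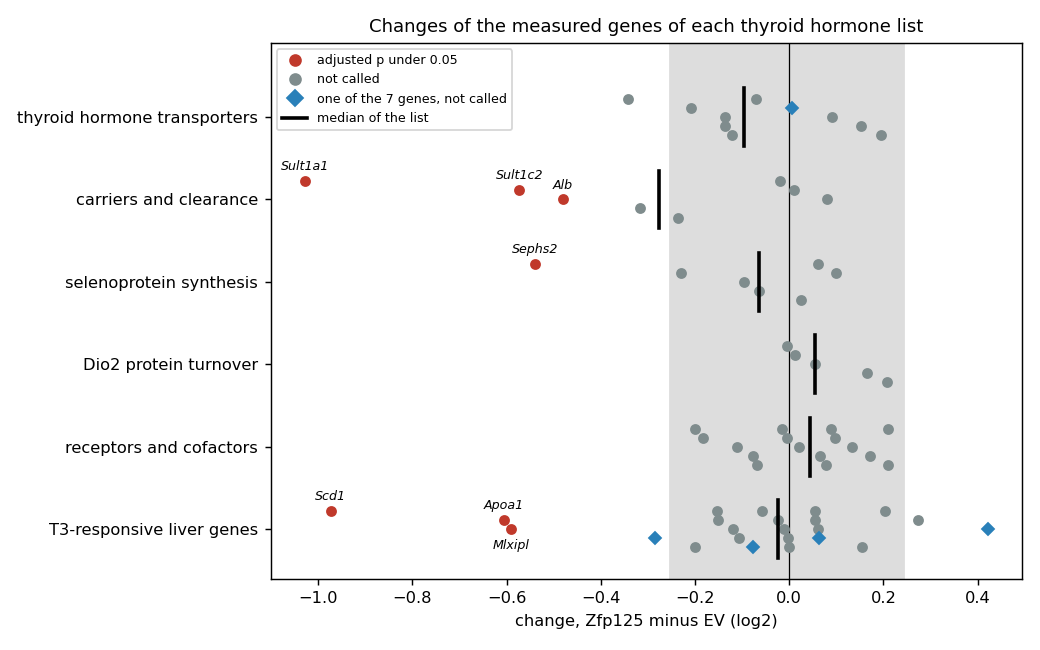
Changes of the measured genes of the 6 thyroid hormone lists, Zfp125 minus EV cells (log2, x axis; one point per gene, a black line for the median of each list, red for an adjusted p under 0.05, blue diamonds for the 7 genes where a list holds them). The grey band holds the middle 90% of all genes; 7 genes are red, all of them lower in Zfp125 cells.

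Hepatocyte markers were bright in both groups: the 6 measured (Alb, Ttr, Apoa1, Apob, Hnf4a and Serpina1c) lay at or above the 97.6th percentile of all clusters. Their summed linear signal was 16162 to 18098 on the EV arrays and 14068 to 14727 on the Zfp125 arrays, and 3 of the 6 fell (Alb, Apoa1 and Serpina1c). Alb and Ttr were the brightest and so the largest part of the sum. The mean of Alb was 12.96 in EV and 12.48 in Zfp125 cells, and that of Ttr 12.58 and 12.66. The sums thus do not describe the markers as a set. Not called were Ttr (change 0.08), Apob (-0.07) and Hnf4a (-0.38, adjusted p = 0.0562, limma). The summed linear signal of the 4 measured biliary markers was 1173 to 1311 and 1316 to 1543, and 0 of the 4 passed the test (limma; 1 had an unadjusted p under 0.05). That was Sox9, the brightest of them and so the largest part of the sum, with a change of 0.28 ± 0.09 (adjusted p = 0.204). The change was -0.14 ± 0.11 for Krt19, 0.03 ± 0.12 for Krt7 and 0.03 ± 0.09 for Epcam, so the sums do not show a rise of the markers as a set. Macrophage, endothelial, stellate and thyroid follicle markers gave 0 calls among 4, 4, 6 and 4 measured genes, of which 1 stellate gene had an unadjusted p under 0.05. Alb and Apoa1 are both on the hepatocyte list and on the lists above. Whether the falls of these hepatocyte markers and those of the target and carrier genes are related was not tested.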

How the data were processed

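The deposited values, on the log2 scale, cover 41345 transcript clusters and 8 arrays and were not normalized again. Per the submitters' processing notes, the authors used Affymetrix Expression Console and Transcriptome Analysis Console; versions, normalization and background correction are not stated in the sources used here, and the scale was inferred from the array medians, 4.32 to 4.37. Arrays have no read depth, and their number limits the precision. Of the clusters, 23521 had 1 symbol, 1814 several and 16010 none; symbols were updated through Entrez identifiers to RefSeq GRCm38.p6, and the brightest cluster of each gene was kept (22180 genes). limma 3.58.1 in R 4.3.3 (lmFit, eBayes) compared Zfp125 with EV, with Benjamini-Hochberg adjustment and a threshold of 0.05; tests were two-sided. Clusters not used in that fit were tested over all clusters. On simulated data with 200 genes changed, it recovered 47.8% of those changed by 0.5 (log2) and 94.0% of those changed by 1. The simulated noise was normal and drawn independently for each gene and array, with the SD of that gene. It held no correlation between genes, so these shares are not the power of the experiment itself.

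The members and lists were chosen with earlier results of these data known. Named genes are the members, the called genes and the 3 smallest p-values of each list, and the 2 closest genes by Pearson r; Dio3os, Ttr, Thrb, Hr and Klf9 were chosen after their values were seen. Titles number the replicates 1 to 4 in both groups. Deviations of same-numbered samples correlated by -0.05 to 0.04, and the main fit used no pairing. This check cannot exclude that same-numbered samples were prepared together, which the labels do not state. Plots were drawn with matplotlib 3.10.9.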

Additional observations from a re-analysis of the deposited data

Results flagged for a closer look

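The Dio1 value of Zfp125 replicate 3, 5.07, stood far from the other 3 Zfp125 arrays, which lay between 4.68 and 4.72: its gap to the nearest made up 0.922 of the range of the group, above Dixon's 95% critical value for 4 samples. It was 1 of 16 group values checked (8 clusters in 2 groups), and about 1 in 20 is expected. Without that array the change of Dio1 was -0.03 in place of 0.06.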

How the results depend on the processing

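Under 9 other settings and 8 omissions of an array, Thrsp, Bcl3, Dio2, Dio3 and Me1 kept the sign of their change wherever they were tested; with clusters above the median only, Dio2 and Dio3 were not tested. The change of Slc16a10 turned to -0.00922 with quantile normalization and -0.00035 with median centring, and ran from -0.0381 to 0.0543 over the omissions, and that of Dio1 ran from -0.0297 to 0.112. Me1 passed with a trended, robust prior (change 0.42) and without EV replicate 1, with changes of 0.37 to 0.53 over the omissions, so the count of members called was 1 in those settings and 0 in the others. The count of genes called was 240, and 405 with clusters above the median, 26 without moderation, 498 with the trended prior, 61 over all clusters and between 109 (without Zfp125 replicate 1) and 187 over the omissions. Calls of carriers and clearance went from 3 to 0 without moderation, 1 over all clusters and 1 to 2 over the omissions. Those of selenoprotein synthesis (1) and of T3-responsive genes (3) went to 0 in both settings. With the replicate number as a block, 152 genes were called, and adjusted p was 0.104 for Me1 and 0.338 for Bcl3; the call of Sult1c2 ended. Whether same-numbered samples were prepared together is not known. The cause of these shifts was not tested. Signal over background was not known for any gene.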
